A study of Homo sapiens with 4 samples.

Results

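A set of 43 genes, of 58812 listed, went from near silence in A549 cells carrying an empty plasmid to measurable RNA in cells carrying a plasmid for the protein SAMD9. The members were chosen from the deposited CPM values (each count scaled to a common library total). Each had at most 0.3 CPM in both empty vector libraries and at least 1.5 CPM in both SAMD9 libraries. These limits were met by 61 genes, 0.104% of all listed genes and 0.161% of the 37799 genes at or under 0.3 CPM in both empty vector libraries. Then 18 genes were left out because their symbols begin with those of large interferon and chemokine families, among them IFNL2, GBP4 and CCL5. The 43 that remained were mostly protein-coding. GENCODE release 29 lists 32 of them as protein-coding, 6 as long non-coding RNAs and 3 as pseudogenes, and 2 are not in that release. Because the CPM values chose the genes, their difference between the groups is given as a description and carries no test.

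A549 is an established human lung carcinoma epithelial line. All 4 libraries came from wild type A549 cells collected 24 hr after transfection with 1 µg of plasmid. The 2 empty vector libraries received pCMV6-Entry, and the 2 SAMD9 libraries received SAMD9 carrying a Myc-DDK tag, so that both groups had taken up plasmid DNA and differed in the insert. SAMD9 was thus made from a plasmid for a short time, in whichever cells had taken it up, and in bulk RNA more expressing cells and more RNA per cell cannot be told apart. RNA was extracted with Trizol and depleted of ribosomal RNA before sequencing. The labels do not say whether replicates were separate cultures, so the spread behind the p-values may be technical only.

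Library totals ran from 29301854 to 39670083 counts. SAMD9 itself had 444 and 400 counts with the empty vector and 220123 and 184350 with the SAMD9 plasmid, as the labels have it. Epithelial markers, among them the keratin genes KRT7, KRT8 and KRT18, summed to 11868 to 12869 CPM per library. Of the 8 that could be tested, 3 were called higher and 5 were not called. Endothelial markers summed to 23.8 CPM in each empty vector library and to 26.3 and 25.8 CPM with SAMD9. Of the 3 tested, 1 was called higher. Leukocyte markers summed to 6.81 to 7.68 CPM, the defining genes MS4A1 and CD3D were at 0 in all libraries, and PTPRC, CD3E, FCER1G and TYROBP had at most 3 counts in any. None of the 3 leukocyte markers that could be tested (CSF1R, CD14 and ITGAM) was called. Fibroblast markers summed to 1.98 and 3.18 CPM with the empty vector and to 6.15 and 6.08 CPM with SAMD9, and collagen gene COL1A1 was called higher (log2 fold change 1.60 ± 0.25 SE, edgeR adjusted p = 3.6e-05). Their part in the results was not tested. In the edgeR quasi-likelihood test of 19814 genes, 3038 (15.3%) were called higher and 2420 (12.2%) lower with SAMD9 at an adjusted p below 0.05, and 1202 (6.07%) were called higher with a log2 fold change of at least 1. The last group is called induced here.

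Interferons bind surface receptors that signal through JAK kinases to STAT and IRF transcription factors. These bind the interferon-stimulated response element (ISRE), built from repeats of GAAA, and the gamma-activated site (GAS), a palindrome of TTC and GAA. NF-kB proteins bind the kB site, and many cytokine genes carry several. In epithelial cells, antiviral restriction factors, cytokines and antigen presentation genes are commonly near silent until such signals arrive. The members were compared with these elements through the RefSeq promoter table (GRCh38.p14), which gives 250 bases before and 50 after each gene's start.

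Promoters for 20 of the 43 members were in that table, and 15 of these started within 500 bases of the gene's 5′ end in the files. The letters GAAA, any 2 bases, then GAAA, searched on both strands in the 250 bases before the start, were present in 4 of the 20, those of BST2, PLA1A, SLC2A12 and RTP4. They occurred in 3.07% of all 27305 promoters and in 10.2% of the 705 promoters of other induced genes. The stretches that hold them are shown because they are the part of the members' promoters that resembles an ISRE. Capitals mark whole copies of these letters or of their reverse complement, and sequences run 5′ to 3′ on the gene's strand.
BST2 (chr19:17405742-17405771, minus strand): ctcctttctggGAAACTGAAACTGAAAacc
RTP4 (chr3:187368350-187368379, plus strand): aaactgaaccgaacaccGAAACTGAAActg
SLC2A12 (chr6:134052625-134052694, minus strand): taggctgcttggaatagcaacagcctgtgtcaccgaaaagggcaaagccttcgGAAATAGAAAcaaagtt
PLA1A (chr3:119597751-119597820, plus strand): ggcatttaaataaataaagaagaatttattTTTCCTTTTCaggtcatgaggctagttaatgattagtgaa
The BST2 stretch holds overlapping copies of the letters, the nearer ending 114 bases before the RefSeq start. The RTP4 and SLC2A12 copies nearest the RefSeq start end 8 and 7 bases before it. In the files RTP4 begins at 187368332, so by those positions its stretch lies inside the gene. All 30 bases of the BST2 and RTP4 stretches, and 12 of the 70 of SLC2A12, lie in exons of listed genes. In PLA1A the letters lie on the opposite strand, 94 bases before the start. The GAS letters TTCNNNGAA were in 2 of the 20 promoters, those of BST2 and SLC1A3, against 6.78% of all promoters. The NF-kB-like letters GGG, any 2 bases, then TTTCC were in 1, that of IL6, against 1.73%. The promoters of IL6 and SLC1A3 start 1316 and 9767 bases from those genes' 5′ ends in the files. Among the 15 promoters with a close start, the ISRE-like letters were in 4, the GAS letters in 1 and the NF-kB-like letters in 0. In 14 of the 20 none of these was found. A match describes letters in a window, and no match says only that the letters are not in that window.

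The members lay on 18 chromosomes and were low in every empty vector library, with at most 8 counts. Of the 43, 3 had 0 counts in both empty vector libraries and 13 had 0 in one of them only. With SAMD9 each had at least 47 counts per library. All 43 passed the filter on low counts, and none reached 10 counts in an empty vector library, so they passed only through the SAMD9 group. The median of their mean SAMD9 levels was 4.17 CPM, with 8 members at 10 CPM or more and 15 below 3 CPM. Per gene length the median member reached 1.96 RPKM (CPM per kilobase of exon), the 44.4th percentile of all tested genes, and the range was 0.134 to 36.1 RPKM. The pseudogene LGALS17A and the restriction factor gene BST2 together held 31.9% of the members' counts in the SAMD9 libraries.

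**Figure D1:**
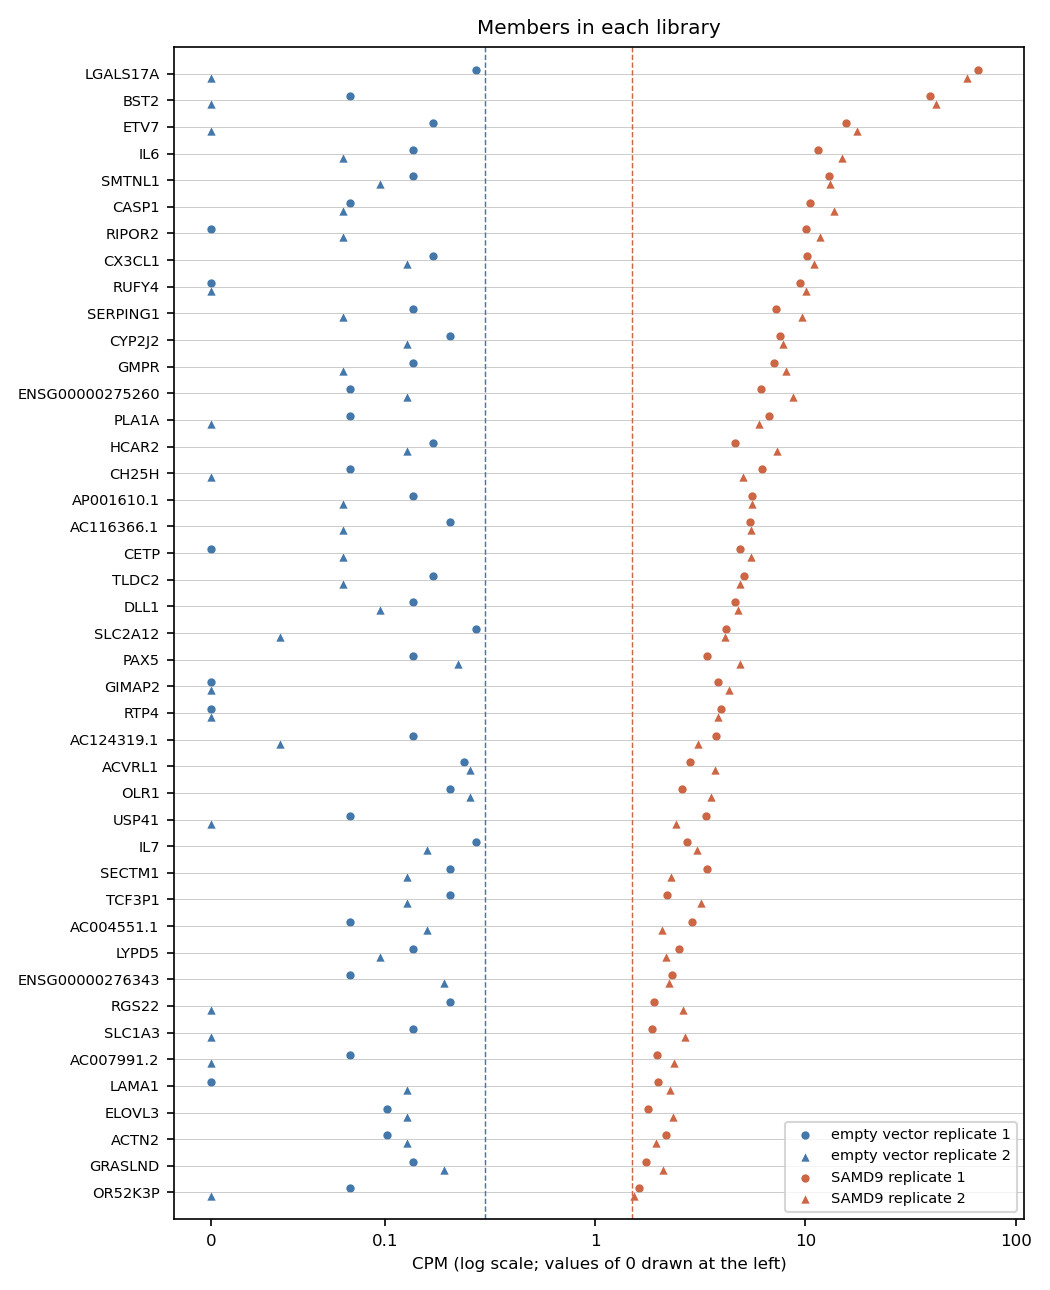
CPM of each of the 43 members in each library, on a log axis with values of 0 drawn at the left; circles are replicate 1, triangles replicate 2, blue the empty vector and orange SAMD9. Dashed lines mark the limits of 0.3 and 1.5 CPM that chose the genes, so the gap between the groups is set by the choice, and LGALS17A and BST2 stand above the rest.

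The ratios below divide the pooled counts of the SAMD9 libraries by those of the empty vector libraries, each per library total, with an exact 95% interval that covers counting error only. Between the 40 members with any empty vector count the ratio ran from 11.6 to 1223, with a median of 42.8. Even numbers made up 72.9% of low counts (1 to 20) but 49.7% of high ones, so a low count may stand for fewer independent fragments than it shows, and the intervals may be too narrow. Between the SAMD9 libraries, replicate 1 was the higher in CPM for 15 members, and its ratio to replicate 2 ran from 0.630 to 1.47.

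Restriction factors and other antiviral genes held the highest protein-coding level. BST2 (ENSG00000130303, chr19:17402939-17405648, GRCh38 as are all positions here) encodes tetherin, which holds budding enveloped viruses at the cell surface. It had 2 and 0 counts with the empty vector and 1550 and 1285 with SAMD9. That was 40.4 ± 1.92 CPM (SD, n = 2) with SAMD9, a ratio of 1223 with an interval of 338 to 10100.1, and its 36.1 RPKM was the highest of the members. RTP4 (chr3:187368332-187372076), a receptor transporter protein with antiviral activity, had 0 and 0 counts with the empty vector and 157 and 118 with SAMD9. Set against 3 counts over the empty vector group, its level was at least 79.1-fold higher. Both are genes whose promoter stretch holds GAAACTGAAA. The family members RTP2 and RTP3 were at 0 in all libraries, and RTP1 reached 3 counts in a single SAMD9 library. CH25H (chr10:89205629-89207314), which makes the antiviral oxysterol 25-hydroxycholesterol, had 2 and 0 counts with the empty vector and 246 and 155 with SAMD9. Its ratio was 173 (47.6 to 1433). GMPR (chr6:16238580-16295549), a purine nucleotide reductase, had 4 and 2 against 281 and 249 counts. Its family member GMPR2 was not called (log2 fold change 0.17 ± 0.08 SE, edgeR adjusted p = 0.146).

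USP41 (chr22:20350578-20390758), a close relative of the ISG15 protease gene USP18, had 2 and 0 counts with the empty vector and 134 and 75 with SAMD9. Of its 31-base stretches 51.4% occur in other genes, and 38.7% occur in USP18. USP18 itself rose by 4.61 ± 0.08 SE on the log2 scale (edgeR adjusted p = 3.8e-22). USP41 had 0.289 counts per 100 of USP18 with the empty vector (0.0349 to 1.05) and 1.22 with SAMD9 (1.06 to 1.39). How many of its reads came from USP18 cannot be told apart. RUFY4 (chr2:218034960-218090581), an adaptor of the autophagy and lysosome pathway known from dendritic cells, had 0 counts in both empty vector libraries and 375 and 310 with SAMD9. It was at least 197-fold higher against the 3-count floor. RUFY1, RUFY2 and RUFY3 were not called, with log2 fold changes of -0.11, -0.06 and -0.07. Under total-count scaling RUFY1 and RUFY2 were called lower. GIMAP2 (chr7:150685697-150693641), a GTPase of a family typical of lymphocytes, had 0 and 0 counts with the empty vector and 153 and 134 with SAMD9, and was at least 82.5-fold higher. The other GIMAP genes listed (GIMAP1, GIMAP4, GIMAP5, GIMAP6, GIMAP7 and GIMAP8) had between 0 and 2 counts in every library.

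Members that encode signalling ligands included IL6, IL7, CX3CL1 and the membrane-bound Notch ligand DLL1. IL6 (chr7:22725884-22732002), a fever and acute phase cytokine, had 4 and 2 counts with the empty vector and 458 and 458 with SAMD9. Its ratio was 132 (60.3 to 359.7), and its mean SAMD9 level 13.2 ± 2.37 CPM (SD, n = 2). Of its exonic bases 20.7% overlap the opposite-strand gene IL6-AS1, which had 0 counts in all libraries. The signal-transducing receptor gene IL6ST was called higher by 0.36 ± 0.06 SE on the log2 scale (edgeR adjusted p = 4.3e-05), and the related cytokine LIF by 1.05 ± 0.06 SE (adjusted p = 4.5e-12). The related cytokine IL11 was called lower (-0.32 ± 0.11 SE, edgeR adjusted p = 0.035) and CLCF1 higher (0.32 ± 0.09 SE, adjusted p = 0.0090). The IL11 call was lost without empty vector replicate 1 (adjusted p = 0.44), SAMD9 replicate 1 (0.17) or SAMD9 replicate 2 (0.081), and that of CLCF1 when scaled by total counts and without empty vector replicate 2 (0.14). The receptor subunit IL6R had a log2 fold change of -0.19 ± 0.10 SE and was not called, although it was called lower under total-count scaling (-0.38).

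CX3CL1 (chr16:57372458-57385048), a chemokine anchored to the membrane by a mucin stalk, had 5 and 4 counts with the empty vector and 404 and 338 with SAMD9 (ratio 71.1, 37.3 to 156). ADAM17, a protease that sheds it, was called higher by 0.54 ± 0.08 SE (edgeR adjusted p = 1.2e-05), and ADAM10, another such protease, was not called (0.06 ± 0.06 SE). Its receptor gene CX3CR1 had 16, 2, 0 and 4 counts and was not tested. IL7 (chr8:78675743-78805523), a lymphocyte growth factor, stood just inside the empty vector limit with 8 and 5 counts, against 109 and 94 with SAMD9. The receptor gene IL7R had 0 and 4 against 12 and 17 counts, under the filter. The related cytokine IL15 was called higher by 0.97 ± 0.11 SE (edgeR adjusted p = 6.3e-07).

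DLL1 (chr6:170282206-170290473) had 4 and 3 counts with the empty vector and 183 and 148 with SAMD9 (ratio 40.8, 19.6 to 102). Notch genes around it did not move one way. The ligand genes DLL4 (1.36 ± 0.35 SE, edgeR adjusted p = 0.0053) and JAG1 (0.39 ± 0.06 SE, adjusted p = 5.5e-05) were called higher. The ligand gene JAG2 (-0.65 ± 0.11 SE, edgeR adjusted p = 6.3e-05) and the receptor gene NOTCH3 (-0.65 ± 0.13 SE, adjusted p = 0.00042) were called lower. HES1, a common Notch target, was also called lower (-0.78 ± 0.13 SE, edgeR adjusted p = 5.4e-05).

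CASP1 (chr11:105025443-105035250), the protease that matures interleukin 1 beta and interleukin 18, had 2 and 2 counts with the empty vector and 418 and 423 with SAMD9. The ratio was 181 (70.6 to 667), and the groups do not overlap, as for every member by the choice. CASP4, which senses bacterial lipopolysaccharide, was called higher by 2.52 ± 0.11 SE on the log2 scale (edgeR adjusted p = 2.4e-14). GSDMD, the pore former that both cut, was called higher by 1.98 ± 0.14 SE (edgeR adjusted p = 7.8e-11). Of the cytokine substrates, IL1B had 8, 0, 10 and 12 counts and was not tested, and IL18 was called lower by a small amount (-0.26 ± 0.07 SE, edgeR adjusted p = 0.0069). That IL18 call was lost without SAMD9 replicate 1 (adjusted p = 0.083) and without SAMD9 replicate 2 (adjusted p = 0.089). The adaptor gene PYCARD had 2, 3, 4 and 13 counts.

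SERPING1 (chr11:57597387-57614853), the inhibitor of the first complement proteases, had 4 and 2 counts with the empty vector and 288 and 296 with SAMD9 (ratio 84.0, 38.3 to 230). The genes of those proteases were called higher as well, C1R by 3.09 ± 0.10 SE and C1S by 2.35 ± 0.09 SE (edgeR adjusted p = 6.5e-17 and 2.0e-15). In CPM, C1R went from 10.2 to 76.5 and C1S from 18.3 to 81.8.

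The members with DNA-binding roles were ETV7 and PAX5. ETV7 (chr6:36354642-36387800), an ETS-family repressor known as interferon-responsive, had 5 and 0 counts with the empty vector and 620 and 544 with SAMD9 (ratio 201, 85.8 to 620). Its paralog ETV6 was already expressed and was called higher, from 34.9 to 132 CPM (log2 fold change 2.11 ± 0.07 SE, edgeR adjusted p = 1.8e-16). PAX5 (chr9:36833275-37034185), the B-cell identity factor, had 4 and 7 counts with the empty vector and 135 and 151 with SAMD9. Of genes known as PAX5 targets in B cells, CD22 was called lower (-1.07 ± 0.21 SE, edgeR adjusted p = 0.00055), CD79A was not called, and BLK had at most 4 counts in any library. EBF1, looked up as another target, was not called (0.57 ± 0.26 SE), and its log2 fold change was 0.96 without empty vector replicate 2. PAX2, a related factor, was called higher (1.49 ± 0.17 SE, edgeR adjusted p = 2.3e-07), and PAX8, another, was not called (-0.19 ± 0.38 SE).

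Lipid enzymes and carriers formed another group. CYP2J2 (chr1:59893308-59926790), which oxidises arachidonic acid, had 6 and 4 counts with the empty vector and 300 and 240 with SAMD9. PLA1A (chr3:119597842-119629811), a phospholipase specific for phosphatidylserine, had 2 and 0 against 268 and 185 counts. CETP (chr16:56961850-56983845), the cholesteryl ester transfer protein of plasma, had 0 and 2 against 194 and 170 counts. These 3 reached 7.68, 6.39 and 5.21 CPM with SAMD9. ELOVL3, a fatty acid elongase, had 3 and 4 against 71 and 72 counts. Its family member ELOVL7 was called higher by 1.16 ± 0.09 SE (edgeR adjusted p = 3.8e-10), while ELOVL5 and ELOVL6 were not called. Also in this group, HCAR2 (chr12:122701293-122703343), the niacin and hydroxybutyrate receptor, had 5 and 4 counts with the empty vector and 183 and 225 with SAMD9. HCAR2 shares 50.9% of its 31-base stretches with HCAR3, so reads may have been split between them, and OLR1, a receptor for oxidised low-density lipoprotein, had 6 and 8 against 103 and 110 counts.

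Among surface proteins and transporters, SLC2A12 (chr6:133988697-134052636), a glucose transporter, had 8 and 1 counts with the empty vector and 166 and 128 with SAMD9. Its exons overlap those of TBPL1 on the opposite strand over 38.9% of their bases. TBPL1 was not called (415 and 432 against 484 and 362 counts). The glucose transporter genes SLC2A1 and SLC2A3 were not called, although both were called lower under total-count scaling, and SLC2A3 also without empty vector replicate 1 (adjusted p = 0.027). ACVRL1 (chr12:51906908-51923361), an endothelial receptor of the bone morphogenetic protein family, had 7 and 8 counts against 112 and 115. Its partner gene BMPR2 (0.91 ± 0.07 SE, edgeR adjusted p = 4.3e-10) and the pathway targets ID1 (0.44) and ID3 (0.42) were called higher. Another partner gene, ENG, was not called (-0.35 ± 0.44 SE, edgeR adjusted p = 0.618).

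SECTM1, which encodes a ligand of the T-cell protein CD7, had 6 and 4 against 135 and 71 counts. LYPD5 had 4 and 3 against 100 and 67 counts, and PLAUR, the urokinase receptor of the same protein family, rose by 3.30 ± 0.06 SE (edgeR adjusted p = 2.7e-21). The family member LYPD3 was not called (0.17 ± 0.58 SE). SLC1A3, a glial glutamate transporter, had 4 and 0 against 74 and 82 counts, while its family member SLC1A4 was called lower (-0.65 ± 0.09 SE, edgeR adjusted p = 8.4e-06). RGS22, a regulator of G-protein signalling, had 6 and 0 against 76 and 81 counts. These lay near the bottom of the set, at 2.27 CPM for both SLC1A3 and RGS22.

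A smaller group held the structural proteins SMTNL1, ACTN2 and LAMA1, and RIPOR2 and TLDC2 are described beside them. SMTNL1 (chr11:57542641-57550274), a smoothelin-like protein of muscle, had 4 and 3 counts with the empty vector and 513 and 404 with SAMD9 (ratio 113, 54.6 to 282). Smoothelin itself (SMTN) was called lower (-0.93 ± 0.09 SE, edgeR adjusted p = 4.7e-08), and SMTNL2 was at 0 in all libraries. RIPOR2 (chr6:24797373-25042168), an inhibitor of the GTPase RhoA, had 0 and 2 against 402 and 360 counts. ACTN2, the muscle alpha-actinin, had 3 and 4 against 86 and 60 counts. LAMA1, a laminin chain of basement membranes, had 0 and 4 against 79 and 70 counts, and is the member with the lowest level per length, at 0.134 RPKM. The laminin alpha genes LAMA3 and LAMA5 were called lower, both by 0.35 on the log2 scale (edgeR adjusted p = 0.019 and 1.7e-05). The LAMA3 call was lost without empty vector replicate 2 (adjusted p = 0.070) and without SAMD9 replicate 1 (adjusted p = 0.27). TLDC2 (chr20:36876121-36894235), a protein with a TLDc domain, had 5 and 2 against 202 and 151 counts, and NCOA7, another gene with that domain, rose by 2.27 ± 0.06 SE (edgeR adjusted p = 7.4e-19). The TLDc gene MEAK7 was called lower (-0.27 ± 0.08 SE, edgeR adjusted p = 0.015), a call lost without SAMD9 replicate 1 (adjusted p = 0.25). OXR1, also of this family, was called higher by 0.32 ± 0.11 SE (edgeR adjusted p = 0.036), a call lost when scaled by total counts and without empty vector replicate 2 (adjusted p = 0.33), SAMD9 replicate 1 (0.088) or SAMD9 replicate 2 (0.14).

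Across the relatives and partners looked up for the members, a list drawn up after the members were known, 39 were called higher, 16 lower, 32 not called and 32 had too few counts to test. Of those tested, 44.8% were called higher and 18.4% lower, against 15.3% and 12.2% of all genes tested. Some of those called higher, among them CARD16, HCAR3 and CLEC7A, had at most 2 counts in any empty vector library. Such genes passed the filter only through the SAMD9 group, so the call of higher was close to fixed for them. The plot of relatives shows both directions among the Notch genes.

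**Figure D2:**
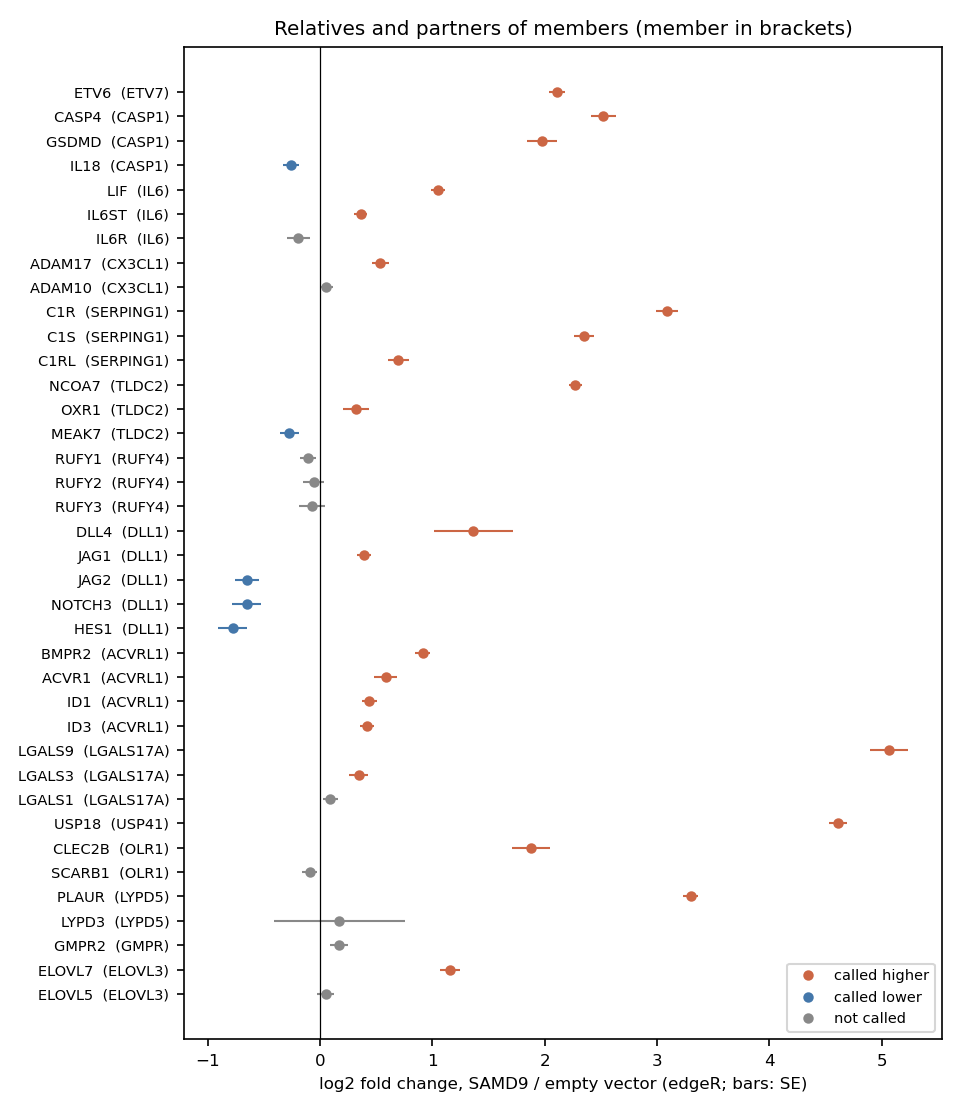
Log2 fold change from edgeR (SAMD9 over empty vector, 2 libraries each; bars are SE) of a selection of the genes related to a member or acting with it, with the member in brackets. Of those drawn, LGALS9 (5.06) and USP18 (4.61) lie farthest right, RUFY1, RUFY2 and RUFY3 lie just below 0, and HES1 (-0.78) lies farthest left.

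The non-coding members and pseudogenes included the most abundant member of all. LGALS17A (ENSG00000226025, chr19:39679374-39686373) is an unprocessed pseudogene of the galectin family, transcribed by its GENCODE type. It had 8 and 0 counts with the empty vector and 2641 and 1799 with SAMD9, that is 62.5 ± 5.71 CPM (SD, n = 2) and a ratio of 479 (243 to 1109). Per length this was 24.3 RPKM, the 90.4th percentile of tested genes. Its galectin relatives LGALS13, LGALS14 and LGALS16 had between 0 and 4 counts. LGALS9, a galectin known as interferon-responsive and encoded elsewhere, rose by 5.06 ± 0.17 SE (edgeR adjusted p = 6.9e-17). With SAMD9 there were 213 counts of LGALS17A for every 100 of LGALS9. Only 6.35% of the 31-base stretches of LGALS17A occur in other genes, and most of those are in an overlapping gene with 0 counts.

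OR52K3P, an olfactory receptor pseudogene, stood lowest of all at 1.57 CPM, with 2 and 0 against 64 and 47 counts. No induced gene lay within 50 kb of it. TCF3P1 (chr9:5110913-5112849), a processed copy of TCF3, lies inside JAK2 on the same strand and had 6 and 4 against 87 and 98 counts. It shares 1.99% of its 31-base stretches with TCF3, which was called lower (-0.25 ± 0.07 SE, edgeR adjusted p = 0.0091), a call lost without empty vector replicate 2 (adjusted p = 0.11), SAMD9 replicate 1 (0.052) or SAMD9 replicate 2 (0.10).

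Each of the 6 long non-coding members lay in or across an induced gene. AP001610.1 (chr21:41441394-41445708) lies inside MX1, the dynamin-like antiviral GTPase gene, on the opposite strand, and had 4 and 2 against 222 and 171 counts. AC116366.1 (chr5:132468890-132473043) lies inside IRF1-AS1 on the opposite strand, 8566 bases from IRF1, and had 6 and 2 against 216 and 169 counts. AC124319.1 (chr17:80315651-80316633) is listed as sense intronic and lies inside RNF213, a large ubiquitin ligase gene, with 4 and 1 against 149 and 95 counts. All 3 sit within transcription units that were themselves called higher, by 7.12, 3.59 and 3.35 on the log2 scale. AC004551.1 (chr12:112907628-113017751) runs antisense across OAS1, OAS3 and OAS2, the genes of the double-stranded RNA sensors, and had 2 and 5 against 115 and 64 counts. AC007991.2 (chr8:39914229-39915721) lies inside IDO1, a tryptophan-degrading enzyme gene, on the same strand, and had 2 and 0 against 78 and 73 counts. GRASLND (chr2:6912277-6918709) overlaps RNF144A on the opposite strand, 14038 bases from RSAD2, the gene of the antiviral enzyme viperin, and had 4 and 6 against 69 and 65 counts.

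The 2 members that are not in GENCODE release 29 also lay beside OAS-family genes. ENSG00000275260 (chr12:121019111-121019485) starts 807 bases downstream of OASL on the same strand and had 2 and 4 against 244 and 268 counts. ENSG00000276343 (chr12:112932743-112933222) lies 558 bases downstream of OAS1 on the same strand, within the span of AC004551.1, and had 2 and 6 against 92 and 69 counts. Both are short, with 375 and 480 exonic bases.

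How far these members followed the gene beside them was measured as member counts per 100 counts of that gene, pooled over the 2 libraries of a group. For ENSG00000276343 the value was 0.253 of OAS1 with the empty vector (0.109 to 0.50) and 0.299 with SAMD9 (0.255 to 0.349), so the intervals overlap. For AP001610.1 it was 0.749 of MX1 (0.274 to 1.64) and 0.347 (0.314 to 0.383), which also overlap. For ENSG00000275260 it was 2.18 of OASL (0.794 to 4.81) and 0.849 (0.777 to 0.926). In all 3 the empty vector interval takes in the SAMD9 value.

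For other pairs the intervals do not overlap, in either direction. TCF3P1 had 0.828 counts per 100 of JAK2 with the empty vector (0.396 to 1.53) and 2.27 with SAMD9 (1.95 to 2.62). AC124319.1 had 0.0161 per 100 of RNF213 (0.00524 to 0.0376) and 0.0760 (0.0667 to 0.0861). Of IRF1-AS1, AC116366.1 had 5.44 (2.31 to 11.01) and 21.3 (19.1 to 23.8), whereas of IRF1 it had 0.414 (0.178 to 0.817) and 0.870 (0.785 to 0.962), which overlap. The measure was lower with SAMD9 for 3 members against the genes given here. AC004551.1 had 5.79 per 100 of OAS2 (2.28 to 12.3) and 0.407 (0.349 to 0.471), and GRASLND had 12.7 per 100 of RSAD2 (5.84 to 24.5) and 0.325 (0.272 to 0.385). Against another induced gene that each overlaps, both were higher with SAMD9. By library, GRASLND had 1 and 1.36 per 100 of RNF144A with the empty vector and 6.53 and 7.08 with SAMD9. AC004551.1 had 0.0276 and 0.0648 per 100 of OAS3 with the empty vector and 0.124 and 0.0850 with SAMD9. AC007991.2 had 2 counts against 6 of IDO1 with the empty vector, 33.3 per 100 (3.29 to 186), and 2.44 (2.06 to 2.87) with SAMD9. Because the members were chosen for a low empty vector count, these values are a description.

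For the protein-coding members SMTNL1, CETP and TLDC2 the measure was larger with SAMD9. These values too are a description, because the members were chosen by their own counts, which favours a larger value with SAMD9. SMTNL1, whose 3′ end faces that of the ISG15-conjugating enzyme gene UBE2L6 at 1382 bases, had 1.21 counts per 100 of UBE2L6 (0.485 to 2.51) and then 4.60 (4.30 to 4.91). CETP, which lies 5640 bases upstream of the MHC class I regulator gene NLRC5 on the same strand, had 0.248 per 100 of NLRC5 (0.0300 to 0.900) and then 1.38 (1.24 to 1.53). TLDC2 overlaps the nuclease gene SAMHD1 on the opposite strand, and had 0.484 per 100 of it (0.194 to 1.00) and then 1.63 (1.46 to 1.81). It was not larger for IL7, which had 400 counts per 100 of LINC02605 in empty vector replicate 1, where LINC02605 had 2 counts, and 206 and 303 with SAMD9. The sources used here do not say whether counting used strand. Reads of members that overlap a gene on the other strand can therefore not be told apart from reads of that gene, and reads of unspliced RNA from a same-strand gene around or just before a member cannot be told apart from its own. Exons shared with an opposite-strand gene made up 30.3% of the bases of AP001610.1 (MX1), 27.2% of AC116366.1 (IRF1-AS1), 16% of AC004551.1 (OAS1) and 8.03% of TLDC2 (SAMHD1). For TLDC2 the overlap was larger by sequence, as 43.4% of its 31-base stretches occur in SAMHD1. The same shares were 16.7% for AP001610.1 in MX1, 26.7% for AC116366.1 in IRF1-AS1 and 11.6% for AC004551.1 in OAS1. How many TLDC2 reads came from SAMHD1 cannot be told apart.

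**Figure D3:**
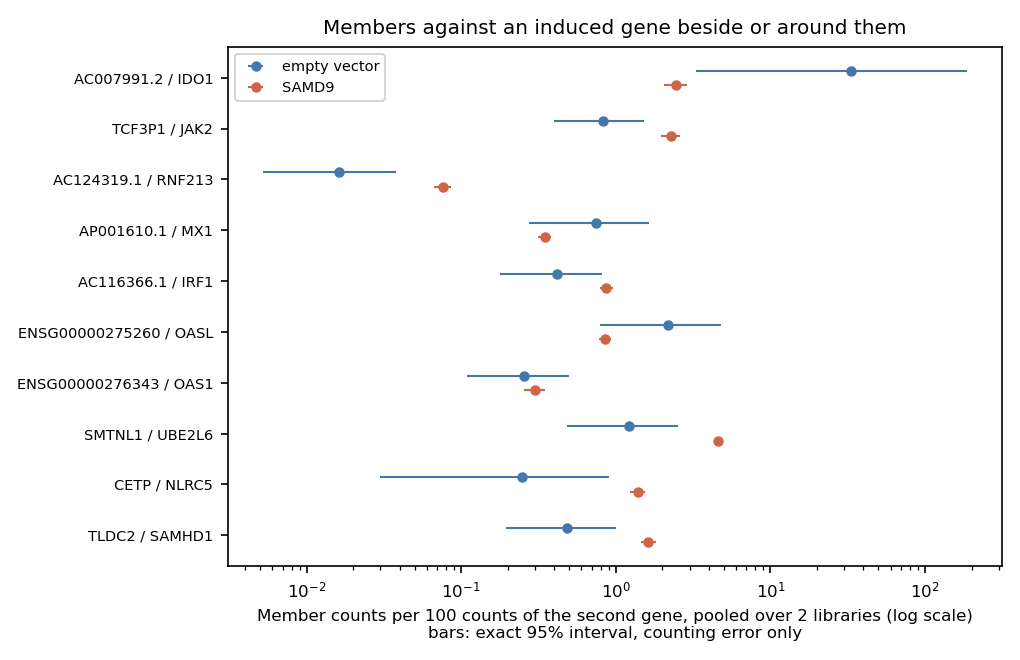
Member counts per 100 counts of an induced gene beside or around it, pooled over the 2 libraries of each group, on a log axis with exact 95% intervals for counting error. For ENSG00000276343 and AP001610.1 the groups' intervals overlap, and for SMTNL1, TLDC2 and TCF3P1 the SAMD9 value lies to the right of the empty vector interval. The members were chosen for a low empty vector count, so the values are a description.

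Position was then taken for the whole set. Within 50 kb of a member's gene body lay 215 listed genes that were not members, and 96 of them could be tested. Of these 50 were called higher (52.1%, against 15.3% of all genes tested) and 5 lower, and their median log2 fold change was 0.73 against -0.01 for all genes tested. With a log2 fold change of at least 1, 44 were called higher. Some of the tested neighbours, among them CARD16, HCAR3 and AC093063.1, had 0 counts in both empty vector libraries. Such genes passed the filter only through the SAMD9 group, so the call of higher was close to fixed for them. The same limit holds where these genes are counted or named below as induced neighbours. The neighbours CCL22 and IDO1 met the CPM limits and had been left out by symbol; without them 48 of 94 (51.1%) were called higher. One locus weighed on this count: all 9 tested neighbours of TCF3P1 were called higher, 8 of them pseudogenes inside JAK2, and without that member's neighbours 41 of 87 (47.1%) were called higher.

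**Figure D4:**
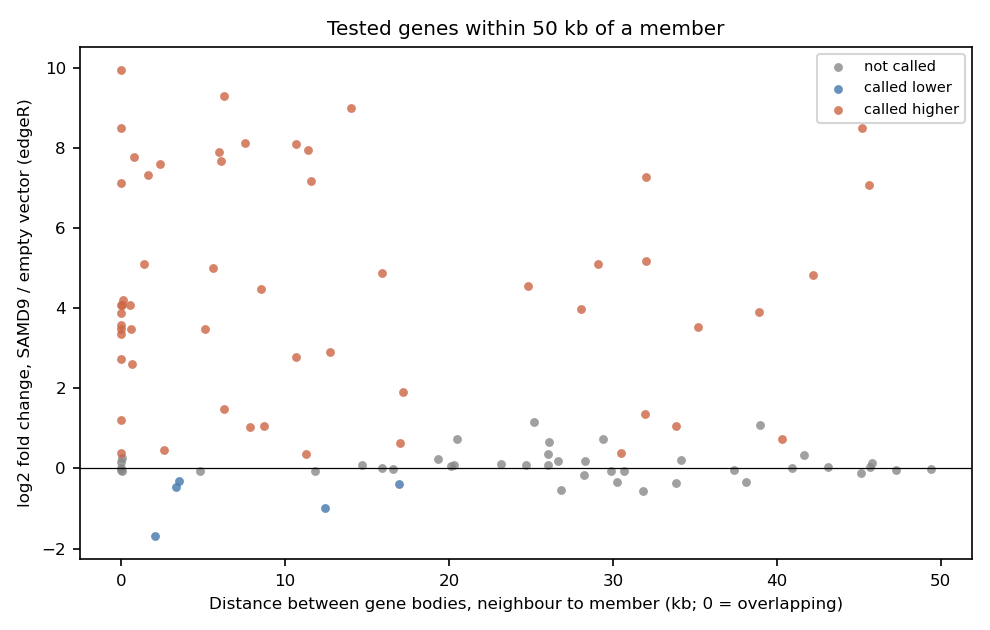
Log2 fold change from edgeR of each tested non-member gene within 50 kb of a member against the distance between the gene bodies in kb (0 is overlapping); a gene near 2 members is drawn once for each. Of the 96 genes, the 50 called higher (orange) reach log2 values near 10 and lie both at 0 and across the window, and the 5 called lower (blue) lie nearer than 20 kb.

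An induced gene lay within 50 kb of 24 of the 43 members (55.8%), against 8.44% of all listed genes and 11.8% of all tested genes. For CX3CL1 and AC007991.2 the nearest such gene was CCL22 and IDO1. Both of these had met the CPM limits and been left out by symbol, so their call of higher was close to fixed. The count of members was not taken again without them. The share differed between the kinds of member. It was 14 of 32 for protein-coding members, against 11.2% of all listed protein-coding genes, and 6 of 6 for long non-coding members, against 7.84%. Among pseudogenes it was 2 of 3, against 6.13%, and both members not in GENCODE release 29 had an induced gene there, against 6.43%. By the nearest induced gene, 8 members lay downstream of it on the same strand, 5 inside it, 3 overlapping it on the opposite strand, 4 upstream on the opposite strand, 3 upstream on the same strand and 1 downstream on the opposite strand. For the other 19 none was found, among them ETV7, IL6, CYP2J2, GMPR, DLL1, PAX5, RTP4 and GIMAP2.

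**Figure D5:**
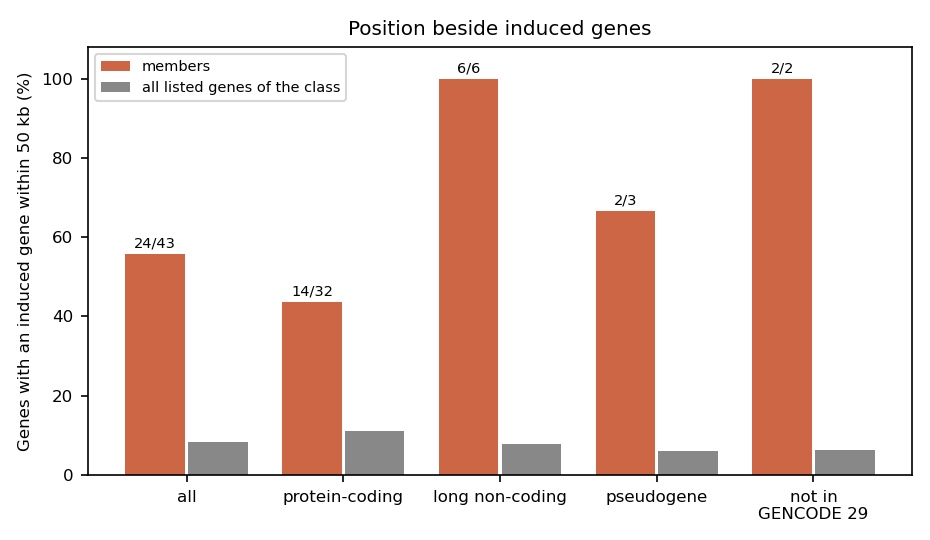
Percent of genes with an induced gene (edgeR adjusted p below 0.05 and log2 fold change of at least 1) within 50 kb, for members (orange, with counts above the bars) and for all listed genes of the same class (grey). Members stand at 24 of 43 over all classes, and all 6 long non-coding members have such a neighbour. Counted among the neighbours are CCL22 and IDO1, which met the CPM limits and were left out by symbol.

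Several of the protein-coding members with an induced neighbour sat in known gene clusters. CASP1 lies 6076 bases downstream of CARD16, a gene for a caspase recruitment domain decoy, which had 0 and 0 counts against 42 and 12 (edgeR adjusted p = 0.00034). HCAR2 lies 11413 bases downstream of its paralog HCAR3, which had 0 and 0 against 23 and 37 counts (edgeR adjusted p = 0.00012). CX3CL1 lies 6268 bases downstream of the chemokine gene CCL22, which had 0 and 0 against 83 and 75 counts. In these 3 pairs both genes were near 0 with the empty vector. OLR1 lies 28043 bases from the lectin gene CLEC7A, which had 2 and 0 against 20 and 16 counts (edgeR adjusted p = 0.0072). That call was lost without empty vector replicate 2 (adjusted p = 0.11), SAMD9 replicate 1 (0.068) or SAMD9 replicate 2 (0.076). SMTNL1 and SERPING1 lie 47113 bases apart, on either side of UBE2L6.

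Other neighbours lay singly beside a member, some already expressed and some near 0 with the empty vector. CH25H lies 6255 bases downstream of LIPA, the lysosomal acid lipase gene, which was called higher by 1.48 ± 0.07 SE (1243 and 1307 against 4165 and 3108 counts, edgeR adjusted p = 1.8e-13). PLA1A lies 7897 bases downstream of ADPRH, called higher by 1.05 ± 0.23 SE (edgeR adjusted p = 0.0012). RUFY4 lies 31965 bases from TNS1, a focal adhesion gene called higher by 1.36 ± 0.17 SE (edgeR adjusted p = 1.6e-06). RIPOR2 lies 38900 bases from the pseudogene CMAHP, whose 2 and 0 against 25 and 10 counts gave an edgeR adjusted p of 0.0099, and 0.13 without empty vector replicate 2. IL7 lies 32006 bases from LINC02605, a long non-coding RNA gene with 2 and 0 against 53 and 31 counts (edgeR adjusted p = 8.0e-05). Beside BST2, ENSG00000269640 at 46 bases had 2 and 4 against 53 and 52 counts, while MVB12A at 74 bases was not called (0.27, edgeR adjusted p = 0.077, and 0.012 without empty vector replicate 2). The neighbour of LGALS17A, AC093063.1 at 7552 bases, had 0 and 0 against 29 and 39 counts. Expressed neighbours that were called lower were few, among them SOGA1 beside TLDC2 (-0.99) and FBXO43 beside RGS22 (-1.68).

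Of the members, 11 were in lists of genes by role, drawn up with earlier results of these data known. The interferon-responsive list held RUFY4, RTP4, GMPR, ETV7, CASP1, SECTM1 and BST2. Of its other genes 51 of 53 tested were called higher, with a median log2 fold change of 4.06, against 15.3% and a median of -0.01 over all genes tested. In this list GBP1P1 also met the CPM limits, so it passed the filter only through the SAMD9 group and its call of higher was close to fixed. The shares of this list and of those below were not taken again without genes of that kind. LAMP3 rose by 7.29 and HERC5 by 6.35. Cytokine and receptor genes other than IL6, IL7 and CX3CL1 were called higher in 14 of 24 tested (median 1.44) and lower in 1, and IL15RA rose by 3.83. Inflammasome and cell death genes other than CASP1 were called higher in 15 of 20 (median 2.05) and complement and acute phase genes other than SERPING1 in 11 of 15 (median 1.84), with CFB at 4.32. Transcription factor genes other than ETV7 were called higher in 20 of 33 (median 1.05), with IRF1 at 4.48 and BATF2 at 6.22. Surface molecules of lymphocytes and antigen-presenting cells, a list with no member, were called higher in 14 of 24 (median 1.06) and included CD274 at 6.96. Restricted genes of brain, muscle and germ line, also with no member, were called higher in 2 of 12 and lower in 2, with a median of 0.26.

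Genes near the limits differed little across them. Just inside the SAMD9 limit stood OR52K3P, GRASLND, ELOVL3, SLC1A3 and RGS22, with lowest SAMD9 values of 1.53 to 1.92 CPM. Just outside it stood ASPG, the bacterial sensor gene NOD2, AL021707.3, PRR20G and RYR2, at 1.496 to 1.39 CPM. NOD2 had 0 and 1 against 59 and 55 counts, PRR20G 0 and 0 against 57 and 51, and ASPG 5 and 5 against 68 and 46. AL021707.3 had 8 and 5 against 58 and 52 counts, and RYR2 7 and 4 against 55 and 61. Just inside the empty vector limit stood LGALS17A, IL7, SLC2A12, OLR1 and ACVRL1, at 0.273 to 0.254 CPM in their higher empty vector library. Just outside it stood MBOAT4, PLEKHS1, LNCTSI, LINC01914 and LMO2, at 0.307 to 0.318 CPM. MBOAT4 had 9 and 8 against 72 and 62 counts, PLEKHS1 9 and 4 against 81 and 54, LNCTSI 9 and 8 against 74 and 53, and LINC01914 8 and 10 against 98 and 89. LMO2, a transcription cofactor of blood formation, had the highest SAMD9 level of these and was kept out by 10 counts in empty vector replicate 2. It had 4 in replicate 1, and 1200 and 948 counts in the SAMD9 libraries.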

How the data were processed

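RNA was sequenced from 4 A549 samples, whose titles gave the group and replicate. The submitters' processing notes name bcl2fastq, the aligner STAR 2.5.1a, the counter featureCounts 1.4.6-p5 and build GRCh38. Not given in the sources used here are the annotation release, the strand setting and the treatment of multi-mapped reads. The authors deposited raw counts per gene with the CPM and RPKM computed from them, and the deposited CPM matched the counts after division by library totals. Of 58812 gene IDs, 40887 had a symbol in the name table and 55297 were in GENCODE release 29, which gave symbols, classes and 31-base comparisons. Positions and exons came from the files.

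Members were taken by the CPM limits and the symbol filter. The members and the lists of genes were chosen with earlier results of these data known, and the list of relatives after the members were known. All genes passing edgeR's filterByExpr (minimum count 10, total 15) were fitted with TMM scaling and the quasi-likelihood test (edgeR 4.0.16, R 4.3.3) and Benjamini-Hochberg adjustment. The script was tested on simulated counts. An exact permutation test of 2 against 2 cannot go below p = 0.333 and was not used. TMM and total-count scaling differed by -0.19 on the log2 scale. All members were accounted for, with values in every library for the 12 protein-coding and 10 other members highest in CPM, those in the lists, those with 0 counts with the empty vector, those near a limit and those near each other. Other members were added where their relatives or neighbours are described. Replicates of a group differed by more than sampling noise (chi-square per degree of freedom 9.35 and 5.00). Alternatives were total-count scaling, no filter, DESeq2 1.42.0, a replicate block, each library left out, other CPM limits, other windows and other motif rules. After the data were seen, the neighbours without those of TCF3P1 were added.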

Additional observations from a re-analysis of the deposited data

How the results depend on the processing

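Total-count scaling changed the split of all genes most, to 1974 higher and 5653 lower, and it turned the sign of GBF1 (-0.18), LAMB1 (-0.0146) and SLC1A5 (-0.0372), none of them members. Leaving out each library in turn gave 2291 to 3123 genes called higher and 1466 to 2279 lower, the lowest without SAMD9 replicate 2, where the lone library of a group is assumed to vary like those of the other group. Neighbours called higher then numbered 40 to 48 and members beside an induced gene 21 to 24. DESeq2 called 2640 genes higher and 1880 lower. The CPM limits set the number of members: 12 with an empty vector limit of 0.1 CPM, 76 with 0.5, 70 with a SAMD9 limit of 1 and 26 with 3. With any library left out all 43 members still met the limits, as they must. A window of 10 kb gave 29 neighbours called higher of 38 tested, and 200 kb gave 95 of 287. The ISRE-like letters with 1 mismatch, or anywhere in the 300 bases, was in 7 members' promoters each, and these forms occur in 29.7% and 3.65% of all promoters. Depth limits the empty vector values, where 1 count is 0.0341 or 0.0318 CPM.

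The labels do not say whether same-numbered libraries shared a culture or a day. The deviations of same-numbered libraries correlated at 0.00415, a value over all tested genes that cannot decide this. With the replicate number as a block, 2914 genes were called higher and 2330 lower, 49 neighbours were called higher and 24 members lay beside an induced gene.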
